A study of Homo sapiens with 90 samples.

Results

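Complement and coagulation genes were followed as 43 named genes out of 19774 genes on the array. They were a given list of hepatocyte genes of both cascades, each gene was read from the brightest of its probe sets, by the mean of all 90 columns, among those assigned to a single symbol, and all 43 were found. They comprised 6 genes that start the classical and lectin pathways of complement, 8 of the C3, alternative and terminal steps, 6 complement regulators, 6 vitamin K dependent coagulation proteins, 6 genes of the contact system with factor V and the factor XIII B chain, 3 fibrinogen chains, and 8 genes of fibrinolysis and protease inhibition. HepG2 is an established human liver tumour line, so the cultures held 1 cell line and none of the blood or vessel cells with which these proteins act. The cells were treated for 24 h with the triazole fungicide fenbuconazole, the imidazole fungicide imazalil or the chlorophenoxy herbicide 2,4-D, at 9 doses each (10, 3 and 1 µM, then 0.3, 0.1 and 0.03 µM, then 0.01, 0.003 and 0.001 µM) with 3 arrays per dose. The controls were 3 arrays of cells given the vehicle, 0.2% DMSO, which every treated culture also received, and these 3 arrays served all 3 compounds.

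Complement is a cascade of plasma proteases and binding proteins that tags microbes and debris and ends in a pore, the membrane attack complex, built from C5b, C6, C7, C8 and C9. Coagulation is a second protease cascade that ends in thrombin, which turns fibrinogen into fibrin, and the fibrinolytic enzyme plasmin removes the clot. Hepatocytes secrete most proteins of both cascades together with the serpins and other inhibitors that limit them, and liver transcription factors and interleukin 6 are known inputs to their genes.

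The values were RMA signals on the log2 scale, normalized in 3 separate sets, 1 per compound, so changes are given against the DMSO columns of the same set. The median within-group SD was 0.11 for the members and 0.145 for all genes, from 0.0623 for SERPINA1 to 0.226 for KNG1. All 9 hepatocyte markers were bright, and their mean per array lay between 12.2 and 12.3 in DMSO and 10 µM arrays. Of 11 listed blood and endothelial markers 10 were measured, PTPRC, VWF and HBB among them. All 10 lay under 3.951, the median of all genes, with means per array from 2.75 to 3.02. Of 8 mesenchymal markers, 6 lay under that level, and ACTA2 and COL1A1 did not. The mean of the 8 per array ran from 3.54 to 3.76 in DMSO and from 3.52 to 3.75 at 10 µM. ACTA2, the gene of smooth muscle actin, lay below every DMSO array at 10 µM fenbuconazole (-0.25 ± 0.08, adjusted p = 0.805) and imazalil (-0.16 ± 0.10, adjusted p = 0.876), as C8B did, and its part in the results was not tested. The interquartile range of an array's values averaged 3.02 without and 2.97 with 10 µM fenbuconazole, 3.01 without and 3.07 with imazalil, and 3.08 without and 3.07 with 2,4-D.

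Of the members, 33 had a mean above 3.951 and 10 lay below it: C1R, MASP1, C6, C8G, C9, SERPING1, F9, F13B, KLKB1 and PLG. For those 10 a change in RNA level would be hard to see on this array. The DMSO arrays of some other members were close together. SERPINA1, the gene of alpha-1-antitrypsin, ranged from 12.94 to 13.12 over the DMSO columns of all 3 sets. C3, the central complement component, ranged from 11.27 to 11.44. Others were wider apart, as for F12 (4.286 to 5.094), C8A (4.581 to 5.194) and C8B (5.231 to 5.726).

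The first comparison asked whether any member differed between the highest dose and the vehicle. None of the 43 passed an adjusted p of 0.05 in limma at 10 µM of any compound. The same test called 3 of 19774 genes for fenbuconazole (0.0152%), 21 for imazalil (0.106%) and 0 for 2,4-D (0%), so few genes of any kind were called. At an unadjusted p under 0.05 there were 3 members for fenbuconazole against 4.74% of all genes, 6 for imazalil against 5.97%, and 0 for 2,4-D against 3.96%. The median change of the members on the log2 scale was -0.04 for fenbuconazole, with 16 members above 0, -0.02 for imazalil, with 19 above 0, and 0.03 for 2,4-D, with 25 above 0. The corresponding medians of all genes were -0.000892, -0.00429 and 0.000767. The members' 95% intervals lay within ± 0.5 on the log2 scale, a fold of 1.41, for 39 of 43 genes with fenbuconazole, 39 with imazalil and 43 with 2,4-D. The genes outside were C6, C8B, F11 and F12 for fenbuconazole, and C1S, MASP1, C8A and C8B for imazalil. Fewer cells that make a transcript and less of it per cell cannot be told apart in these bulk samples.

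C8B, the gene of the C8 beta chain of the membrane attack complex, was the 1 member that passed the threshold in any test. The p-values were adjusted over genes within each comparison and not over the many comparisons made. In the fenbuconazole set its 3 DMSO arrays read 5.33, 5.56 and 5.23, and its 3 arrays at 10 µM read 5.08, 5.01 and 4.86. Every 10 µM array was below every DMSO array. The change against DMSO was -0.39 ± 0.09 (SE, n = 3 per group), a fold of 0.762 with a 95% interval of 0.671 to 0.865, and its adjusted p of 0.202 in limma missed the threshold.

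Because 3 DMSO arrays limit that test, 10 µM was also set against the 9 arrays of the 3 lowest doses, 0.001, 0.003 and 0.01 µM. Against them C8B fell by 0.43 ± 0.07 on the log2 scale, a fold of 0.74 (95% interval 0.667 to 0.821), with an adjusted p of 0.00742 in limma. This test called 1 member of 43 and 12 of all genes (0.0607%). The group means of C8B were 5.36, 5.43 and 5.46 at the 3 lowest doses, 5.34, 5.40 and 5.28 at 0.03, 0.1 and 0.3 µM, and 5.30, 5.20 and 4.98 at 1, 3 and 10 µM. The level at 10 µM was the lowest of the 9 dose means, and the slope of -0.09 per 10-fold dose had an adjusted p of 0.072. The call was lost when every array of replicate 1 (adjusted p = 0.399), replicate 2 (0.0638) or replicate 3 (0.432) was left out. It was lost, too, when all columns were normalized together and fitted in 1 model over the 84 arrays of all compounds (0.127). The parts of the normalization and of the shared fit in this were not separated. The change stayed between -0.34 and -0.49 in these fits. The call was also lost without the 10 µM array of replicate 2 (adjusted p = 0.0539) or of replicate 3 (0.156).

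In the imazalil set C8B read 5.30, 5.53 and 5.23 in DMSO and 4.83, 5.13 and 4.80 at 10 µM, again with no overlap between the groups. The change was -0.43 ± 0.16 (fold 0.742, 95% interval 0.594 to 0.927, adjusted p = 0.738 in limma). Its groups at lower doses were more spread, with an SD of 0.294 at 0.001 µM and 0.304 at 0.1 µM. In the 2,4-D set C8B read 5.61, 5.73 and 5.39 in DMSO and 5.38, 5.72 and 5.21 at 10 µM, and these groups overlapped. The 2,4-D change was -0.14 ± 0.12 (adjusted p = 1).

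C8A, the gene of the C8 alpha chain, is the protein coding neighbour of C8B on chromosome 1 in the RefSeq gene order. With imazalil it had the largest change of any member in either direction: 5.19, 4.87 and 4.93 in DMSO against 4.62, 4.57 and 4.33 at 10 µM. The groups did not overlap, and the change was -0.49 ± 0.14 (fold 0.711, 95% interval 0.585 to 0.865, adjusted p = 0.389 in limma). Against the 3 lowest doses it was -0.47 ± 0.11 with an adjusted p of 0.0947. It passed with dim genes left out (0.0491), with the replicate number as a block (0.0488) and with all columns normalized and fitted together (0.0441). At 3 µM the C8A arrays read 5.17, 5.16 and 4.88, and its means at the 8 doses below 10 µM lay between 4.80 and 5.14.

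With fenbuconazole C8A read 4.29, 5.02 and 4.54 at 10 µM against 4.96, 4.58 and 4.74 in DMSO, groups that overlapped. With 2,4-D it read 4.92, 4.70 and 4.73 at 10 µM against 5.07, 4.78 and 4.92. The C8A changes were -0.15 ± 0.17 for fenbuconazole and -0.14 ± 0.13 for 2,4-D. C8G, the gene of the third C8 chain, was among the 10 dim members and differed by -0.12 ± 0.13, 0.10 ± 0.14 and 0.08 ± 0.11 with fenbuconazole, imazalil and 2,4-D.

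**Figure D1:**
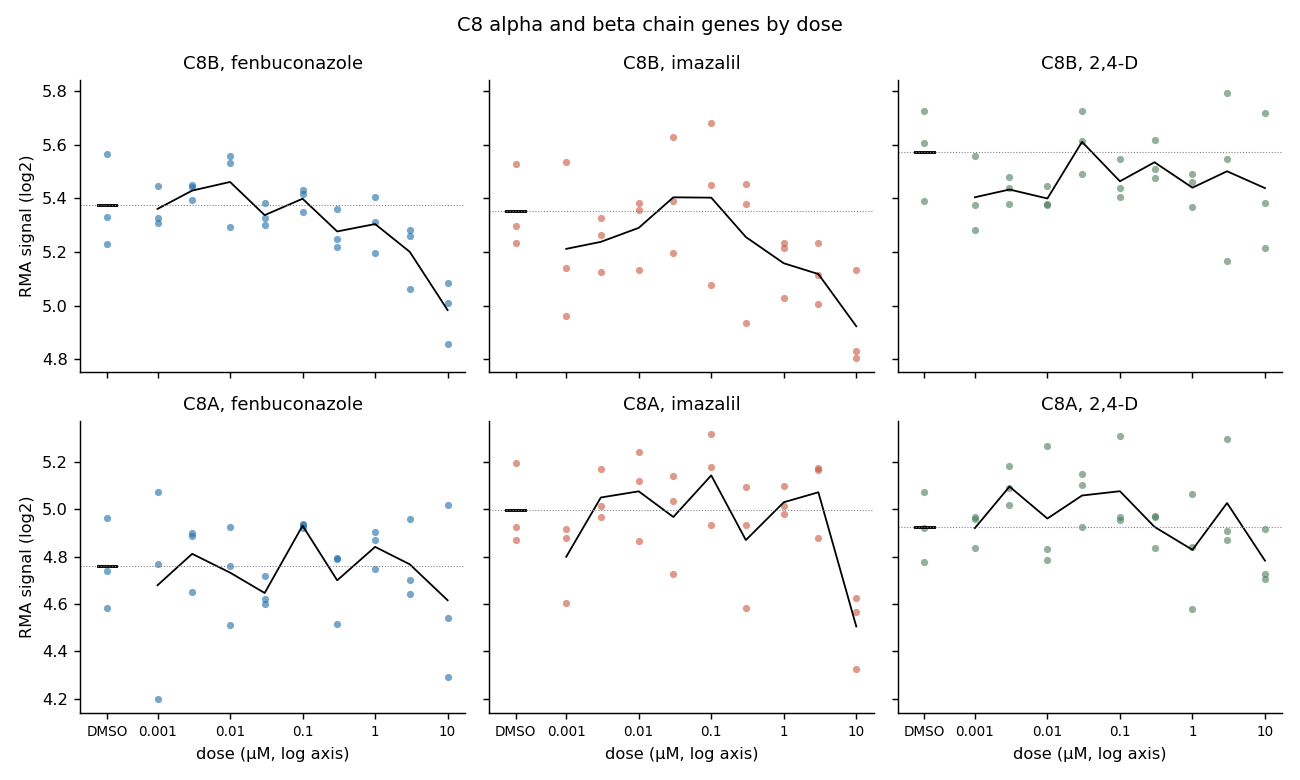
RMA signal (log2, vertical axis) of C8B and C8A in each array by dose (µM, log axis) for the 3 compounds, with points for arrays, a line through the 9 dose means, a bar for the DMSO mean and a dotted line at that mean. C8B with fenbuconazole ends at a mean of 4.98 after 5.20 at 3 µM, and C8A with imazalil ends at a mean of 4.505 after 5.07 at 3 µM.

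The bases before the starts of C8A and C8B are shown because these neighbours had the lowest changes of any members at 10 µM imazalil. Both are RefSeq windows of 250 bases upstream of the annotated start on GRCh38.p14, C8A on the plus strand at chr1:56854547-56854796 and C8B on the minus strand at chr1:56966016-56966265. Capitals mark a match, with up to 2 mismatches on either strand, to the palindromic site of the liver factor HNF1, which is GTTAAT, any 1 base, and the reverse complement ATTAAC.
C8A: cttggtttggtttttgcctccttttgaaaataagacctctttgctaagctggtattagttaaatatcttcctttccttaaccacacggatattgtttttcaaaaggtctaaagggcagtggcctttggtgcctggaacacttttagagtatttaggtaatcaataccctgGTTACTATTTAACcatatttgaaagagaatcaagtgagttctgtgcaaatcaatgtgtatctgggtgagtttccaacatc
C8B: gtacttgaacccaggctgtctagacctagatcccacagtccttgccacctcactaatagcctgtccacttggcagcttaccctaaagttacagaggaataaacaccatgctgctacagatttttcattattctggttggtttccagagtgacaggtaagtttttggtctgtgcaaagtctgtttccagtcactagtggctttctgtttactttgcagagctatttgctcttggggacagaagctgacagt

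The C8A window held 1 such match, 80 to 68 bases before the start, with 2 mismatches, and the C8B window held none. This search was chosen after exact searches of the windows, with the 50 bases after the start included, for GTTAAT, CAAAGTCCA, TTGCNNAA and TATAAA, on both strands, had found no match in either gene. The looser HNF1 site was present in 1.24% of all 35116 promoter windows and in 10 of 46 windows of the 35 members with a RefSeq window, among them those of F2, FGA, FGB, C5 and PLG. The exact core GTTAAT was present in 15 of the 46 member windows against 6.88% of all windows, and TTGCNNAA, a C/EBP motif, in 13 of 46 against 10.5%. CAAAGTCCA, an HNF4 core, was in 1 member window against 0.384% of all, and TATAAA in 2 against 11.5%. A match is a description of letters and was set beside no binding data.

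Of the genes that start the classical and lectin pathways, 5 of 6 were above 0 at 10 µM imazalil, 4 of 6 with fenbuconazole and 5 of 6 with 2,4-D, and none passed the test. C1S, a protease of the C1 complex that cleaves C4 and C2, had the largest value in this group. With imazalil it read 6.36, 6.60 and 6.46 in DMSO and 6.75, 6.90 and 6.82 at 10 µM, so that all 3 treated arrays were above all 3 DMSO arrays. The C1S change was 0.35 ± 0.10 (fold 1.28, 95% interval 1.11 to 1.47, adjusted p = 0.366 in limma). Its group mean was 6.53 at 1 µM and 6.65 at 3 µM. Against the 3 lowest doses the C1S difference was 0.33 ± 0.08 with an adjusted p of 0.0947, and it passed with dim genes left out (0.0396). With fenbuconazole C1S read 6.37, 6.68 and 6.57 at 10 µM against 6.40, 6.62 and 6.48, and with 2,4-D 6.51, 6.65 and 6.69 against 6.43, 6.61 and 6.53, and both pairs of groups overlapped. A second, dimmer C1S probe set differed by 0.25 ± 0.18 at 10 µM imazalil.

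MBL2, the mannose-binding lectin that recognizes microbial sugars, read 6.75, 6.64 and 6.62 in DMSO and 6.9999, 6.90 and 6.92 at 10 µM imazalil. These groups did not overlap, and the change was 0.27 ± 0.10 (fold 1.21, adjusted p = 0.738). C1R, the partner protease of C1S and its neighbour on the chromosome, was dim, with values of 3.95, 3.77 and 3.45 in DMSO against 3.83, 3.99 and 3.73 at 10 µM imazalil, a change of 0.13 ± 0.11. The C1R slope over the imazalil doses was 0.07 per 10-fold dose with an adjusted p of 0.253. C2, which with C4 forms the C3 convertase, had changes of 0.07, -0.01 and 0.03 with fenbuconazole, imazalil and 2,4-D at 10 µM. The lectin pathway proteases MASP1 and MASP2 had changes between -0.13 and 0.19 over the 3 compounds. MASP2 had the steepest 2,4-D slope of the members, 0.07 per 10-fold dose, with an adjusted p of 1.

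C3 itself read nearly the same with and without the compounds. With fenbuconazole it read 11.34, 11.29 and 11.36 in DMSO and 11.35, 11.27 and 11.45 at 10 µM, with imazalil 11.36, 11.27 and 11.37 against 11.28, 11.31 and 11.37, and with 2,4-D 11.42, 11.36 and 11.44 against 11.33, 11.45 and 11.52. The C3 changes were 0.03 ± 0.08, -0.01 ± 0.06 and 0.03 ± 0.06, the groups overlapped in every set, and the sign of each turned in 2, 4 and 2 of 17 alternative fits. The widest of the 3 intervals, for fenbuconazole, ran from -0.13 to 0.18 on the log2 scale. CFB, the protease of the alternative pathway, had changes of -0.10, -0.04 and -0.000547, and C5, which starts the terminal steps, -0.03, -0.02 and 0.02. C6 was dim and was the second lowest member with fenbuconazole, at 2.95, 3.29 and 2.67 in DMSO and 2.86, 2.74 and 2.59 at 10 µM. The C6 groups overlapped, with a change of -0.24 ± 0.16. C9, which forms most of the pore, was dim, with changes between -0.08 and -0.01.

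Among the 6 regulators of complement, 5 were below 0 with fenbuconazole, 3 with imazalil and 1 with 2,4-D. VTN, the gene of vitronectin, which holds the terminal complex off membranes, read 7.95, 7.96 and 7.93 in DMSO and 7.77, 7.66 and 7.70 at 10 µM imazalil. Every treated array was lower, by -0.24 ± 0.11 on average (fold 0.847, adjusted p = 0.797). Over the 30 imazalil columns VTN fell as the array spread rose, with Pearson's r of -0.57 (adjusted permutation p = 0.00703). The permutations ignored dose, so a change with dose also enters this r. The mean spread was 3.07 at 10 µM and 3.01 in DMSO. The 10 µM range (3.04 to 3.08) lay inside the DMSO range (2.94 to 3.1). With the array spread as a covariate the VTN change was -0.18 (adjusted p = 0.792), and the cause of the change was not tested. The VTN means at 1 and 3 µM imazalil were 7.83 and 7.75, and the slope was -0.07 per 10-fold dose with an adjusted p of 0.241. With fenbuconazole VTN read 7.70, 7.87 and 7.93 against 7.88, 7.90 and 7.85, and with 2,4-D 8.05, 7.99 and 7.998 against 8.01, 8.09 and 8.004, groups that overlapped in both sets. C4BPA, the alpha chain of C4b-binding protein, was the second highest member with 2,4-D, at 6.88, 6.96 and 6.92 in DMSO and 7.14, 7.08 and 6.96 at 10 µM, which just cleared the DMSO arrays. The C4BPA change was 0.14 ± 0.08 (adjusted p = 1). C4BPB, the beta chain, and CFI, the protease that cuts C3b and C4b, had changes between -0.07 and 0.07 with every compound. CLU, the gene of clusterin, ranged from -0.10 to 0.09, and SERPING1, the inhibitor of C1r and C1s, was dim, with changes of -0.05, -0.17 and 0.05.

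The vitamin K dependent proteins showed no called change. F2, the gene of prothrombin, read 10.30, 10.28 and 10.20 in the DMSO columns of the fenbuconazole set and 10.42, 10.10 and 10.31 at 10 µM, then 10.29, 10.26 and 10.19 against 10.22, 10.25 and 10.16 with imazalil, and 10.40, 10.33 and 10.32 against 10.42, 10.43 and 10.32 with 2,4-D. The F2 groups overlapped in every set, with changes of 0.02 ± 0.09, -0.04 ± 0.07 and 0.04 ± 0.08, and the fenbuconazole sign turned in 5 of 17 alternative fits. F10, the gene of factor X, read 6.67, 6.45 and 6.53 in DMSO and 6.66, 6.78 and 6.76 at 10 µM fenbuconazole. The F10 groups overlapped by 1 array, and the change was 0.19 ± 0.08 (fold 1.14, adjusted p = 0.999). F7, the gene of factor VII and the neighbour of F10, was the lowest member with 2,4-D, at 6.02, 6.33 and 6.29 in DMSO and 5.91, 6.17 and 6.01 at 10 µM. The F7 groups overlapped, with a change of -0.18 ± 0.11 (adjusted p = 1). The other coagulation protease of this class, F9, was dim, and the anticoagulants PROC and PROS1 differed by -0.07 and -0.01 with fenbuconazole, 0.01 and -0.05 with imazalil, and -0.06 and -0.02 with 2,4-D.

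In the contact system F11, the gene of factor XI, was the highest member with fenbuconazole. It read 5.87, 6.08 and 5.71 in DMSO and 5.97, 6.30 and 6.18 at 10 µM, groups that overlapped, with a change of 0.26 ± 0.13 (fold 1.20, adjusted p = 0.999). The 3 other F11 probe sets were dim and differed by 0.08, 0.09 and 0.18. F12, which starts the contact pathway, had wide intervals, with changes of 0.14 ± 0.18, 0.07 ± 0.14 and -0.12 ± 0.13 at 10 µM of fenbuconazole, imazalil and 2,4-D. F5, the cofactor of factor Xa, differed by 0.03, -0.11 and 0.05. A second F5 probe set, with a mean of 4.24, differed by -0.53 ± 0.18 at 10 µM fenbuconazole (adjusted p = 0.999 in limma over all probe sets). The remaining one, with a mean of 7.99, differed by -0.05 ± 0.08. The F5 probe sets thus disagreed in size, and both of these were opposite in sign to the one used (0.03). KNG1, the gene of kininogen, KLKB1, of plasma prekallikrein, and F13B lay between -0.09 and 0.10.

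The 3 fibrinogen chains FGA, FGB and FGG are neighbours on 1 chromosome and were bright in all arrays. FGA read 11.86, 11.78 and 11.71 in DMSO and 11.72, 11.51 and 11.59 at 10 µM fenbuconazole, with 1 treated array inside the DMSO range, and 11.90, 11.80 and 11.73 against 11.63, 11.83 and 11.66 with imazalil. In the 2,4-D set FGA read 11.93, 11.83 and 11.77 in DMSO and 11.91, 11.83 and 11.73 at 10 µM. These FGA changes were -0.18 ± 0.07 (fold 0.884, adjusted p = 0.999), -0.10 ± 0.08 and -0.02 ± 0.06, and the last was -0.11 when all FGA probe sets were averaged. Of these the fenbuconazole change had an unadjusted p under 0.05. The imazalil slope of FGA was -0.04 per 10-fold dose with an adjusted p of 0.331.

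FGB read 11.26, 11.17 and 10.98 in DMSO and 11.07, 11.11 and 10.97 at 10 µM fenbuconazole, 11.28, 11.22 and 10.995 (DMSO) against 11.07, 11.12 and 10.93 with imazalil, and 11.32, 11.21 and 11.05 against 11.16, 11.18 and 11.06 with 2,4-D. All 3 FGB comparisons overlapped, with changes of -0.09 ± 0.09, -0.13 ± 0.09 and -0.06 ± 0.08. FGG read 12.61, 12.45 and 12.41 against 12.49, 12.36 and 12.40 with fenbuconazole, 12.60, 12.41 and 12.43 against 12.51, 12.57 and 12.52 with imazalil, and 12.69, 12.56 and 12.50 against 12.55, 12.52 and 12.46 with 2,4-D. The FGG changes were -0.07 ± 0.07, 0.05 ± 0.07 and -0.08 ± 0.06, and the sign of FGG with imazalil turned in 2 of 17 alternative fits. A second FGB probe set, at a mean of 10.5, differed by 0.12 ± 0.10 with imazalil, opposite in sign to the one used.

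Among fibrinolytic genes and inhibitors, SERPINA1 read 13.09, 12.94 and 13.02 in DMSO and 13.04, 12.91 and 12.93 at 10 µM fenbuconazole, 13.10, 12.95 and 13.03 against 13.02, 13.08 and 13.05 with imazalil, and 13.12, 13.03 and 13.06 against 13.13, 13.05 and 12.98 with 2,4-D. The SERPINA1 changes were -0.06 ± 0.07, 0.03 ± 0.07 and -0.02 ± 0.06, and the groups overlapped in every set. Its sign turned in 3 of 17 alternative fits with imazalil and in 3 with 2,4-D. SERPIND1, the gene of heparin cofactor II, a thrombin inhibitor, read 10.54, 10.48 and 10.29 in DMSO and 10.26, 10.35 and 10.12 at 10 µM imazalil. These groups overlapped by 1 array, and the change was -0.19 ± 0.09 (fold 0.875, adjusted p = 0.812). Its slope of -0.06 per 10-fold dose of imazalil had an adjusted p of 0.187, and 0.0437 with a trended robust variance.

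SERPINF2, the gene of alpha-2-antiplasmin, was the second highest member with fenbuconazole, at 7.25, 7.08 and 7.06 in DMSO and 7.45, 7.14 and 7.35 at 10 µM. The SERPINF2 groups overlapped and the change was 0.19 ± 0.10 (fold 1.14, adjusted p = 0.999). A2M, the gene of the broad protease trap alpha-2-macroglobulin, was the highest member with 2,4-D, at 11.69, 11.61 and 11.52 in DMSO and 11.84, 11.71 and 11.70 at 10 µM. The treated A2M arrays cleared the DMSO arrays, by 0.14 ± 0.07 on average (fold 1.10, adjusted p = 1). A second, dim A2M probe set, with a mean of 2.65, differed by -0.12 ± 0.17, and the mean of both by 0.01. SERPINC1, the gene of antithrombin, had changes of 0.11, 0.21 and 0.08 with fenbuconazole, imazalil and 2,4-D, and SERPINA5, of protein C inhibitor, 0.11, 0.12 and 0.05. CPB2, which protects fibrin from lysis, had changes between -0.06 and 0.04, and PLG, the gene of plasminogen, was dim.

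Counted by overlap, all 3 arrays at 10 µM fenbuconazole lay above every DMSO array for 1 member (SERPINA5) against 4.84% of all genes, and below for 2 (C8B and PLG) against 4.21%. With imazalil 3 members lay above (C1S, MBL2 and SERPINA5) against 5.94% of genes and 4 below (C8A, C8B, VTN and F5) against 6.78%. With 2,4-D 2 lay above (C4BPA and A2M) against 3.45%, and 0 below against 3.3%.

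The dose series gave tests that use more arrays. The F test over the 9 doses and DMSO called 0 members for each compound, against 2 genes of all for fenbuconazole (0.0101%), 7 for imazalil (0.0354%) and 0 for 2,4-D (0%). At an unadjusted p under 0.05 it gave 2 members for fenbuconazole (3.52% of all genes), 6 for imazalil (4.63%) and 0 for 2,4-D (5.27%). The slope over the 27 treated arrays also called 0 members, against 3 genes of all for fenbuconazole (0.0152%), 27 for imazalil (0.137%) and 0 for 2,4-D (0%). Before adjustment the imazalil slopes gave 13 of 43 members, 3 upward (C1R, C1S and MBL2) and 10 downward (CFB, C8B, C4BPA, CFI, SERPING1, VTN, CLU, FGA, CPB2 and SERPIND1), where 7.36% of all genes passed. The fenbuconazole slopes gave 5, all downward (C2, CFB, C8B, C4BPB and PLG), where 6.01% of genes passed, and the 2,4-D slopes gave 2, both upward (MASP2 and C8G), where 4.56% passed. None of these slopes passed after adjustment over all genes.

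Against the 3 lowest doses, 10 µM imazalil called 0 members while 45 genes of all passed (0.228%), and 2,4-D called 0 with 0 genes of all (0%). Before adjustment this comparison gave 4 members for fenbuconazole (5.48% of all genes), 8 for imazalil (7.32%) and 1 for 2,4-D (4.33%). The 4 with fenbuconazole were C8B, CFB, FGA and SERPINF2, and the 8 with imazalil were C1R, C1S, MBL2, C8A, C8B, C4BPA, VTN and SERPIND1. At the 8 lower doses against DMSO no member was called, and of all genes 1 passed at 3 µM imazalil (0.00506%) and 0 in every other of these comparisons (0%). The largest differences of members at these doses were 0.34 for MASP1 at 0.03 µM fenbuconazole and -0.32 for F12 at 1 µM fenbuconazole. Of the 1032 values of members at the lower doses, 1.07% had an unadjusted p under 0.05, against a mean of 3.64% over all genes.

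**Figure D2:**
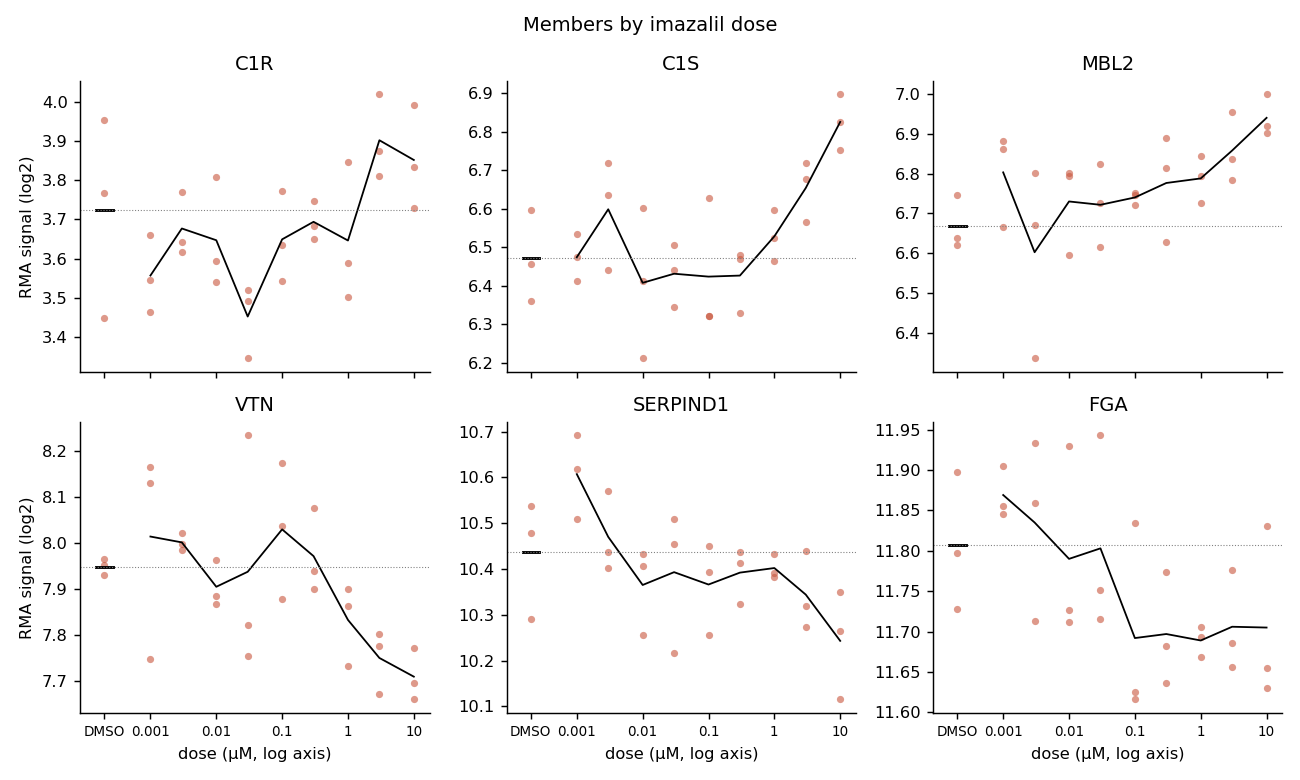
RMA signal (log2, vertical axis, scaled to each gene) of C1R, C1S, MBL2, VTN, SERPIND1 and FGA by imazalil dose (µM, log axis), with points for arrays, a line through dose means, a bar for the DMSO mean and a dotted line at that mean. C1S and MBL2 end at means of 6.82 and 6.94 above DMSO means of 6.47 and 6.67, and VTN and SERPIND1 end at 7.71 and 10.24 below 7.95 and 10.44.

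The compounds were then compared at the matched dose of 10 µM, each change taken against its own DMSO columns. In the 3 pairs of compounds no member passed an adjusted p of 0.05, while imazalil minus fenbuconazole called 8 genes of all (0.0405%), imazalil minus 2,4-D 50 (0.253%) and fenbuconazole minus 2,4-D 18 (0.091%). Before adjustment 5, 10 and 5 members passed, where 9.89%, 9% and 6.87% of all genes did. Between the triazole fenbuconazole and the imidazole imazalil, the C8A difference was the largest of the members, at -0.35 ± 0.16 (95% interval -0.67 to -0.02, adjusted p = 0.472 in limma). For C1S imazalil exceeded fenbuconazole by 0.31 ± 0.10 (0.11 to 0.51, adjusted p = 0.314), and for F11 the difference was -0.32 ± 0.12 (-0.55 to -0.09, adjusted p = 0.368). For F10 it was -0.25 ± 0.07 (-0.40 to -0.11, adjusted p = 0.27). With all columns normalized and fitted together the F10 difference was -0.41 with an adjusted p of 0.00515 in limma. That fit compared the 10 µM arrays directly, without each set's own DMSO columns. The call therefore depended on the normalization, the shared fit and the form of the contrast together, which were not separated. C8B differed by -0.04 ± 0.13 between these fungicides, with an interval from -0.30 to 0.22 that leaves room for a difference either way.

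Against 2,4-D the azoles had lower C8B, by -0.26 ± 0.10 for fenbuconazole (95% interval -0.47 to -0.05, adjusted p = 0.641) and -0.29 ± 0.15 for imazalil (-0.59 to -0.00183, adjusted p = 0.551). Imazalil minus 2,4-D was -0.35 ± 0.14 for C8A (adjusted p = 0.425), 0.30 ± 0.11 for MBL2 (adjusted p = 0.327), 0.26 ± 0.09 for C1S (adjusted p = 0.37) and -0.22 ± 0.09 for SERPIND1 (adjusted p = 0.419). None of these differences between compounds passed the threshold, and all 3 pairs share the same DMSO arrays.

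**Figure D3:**
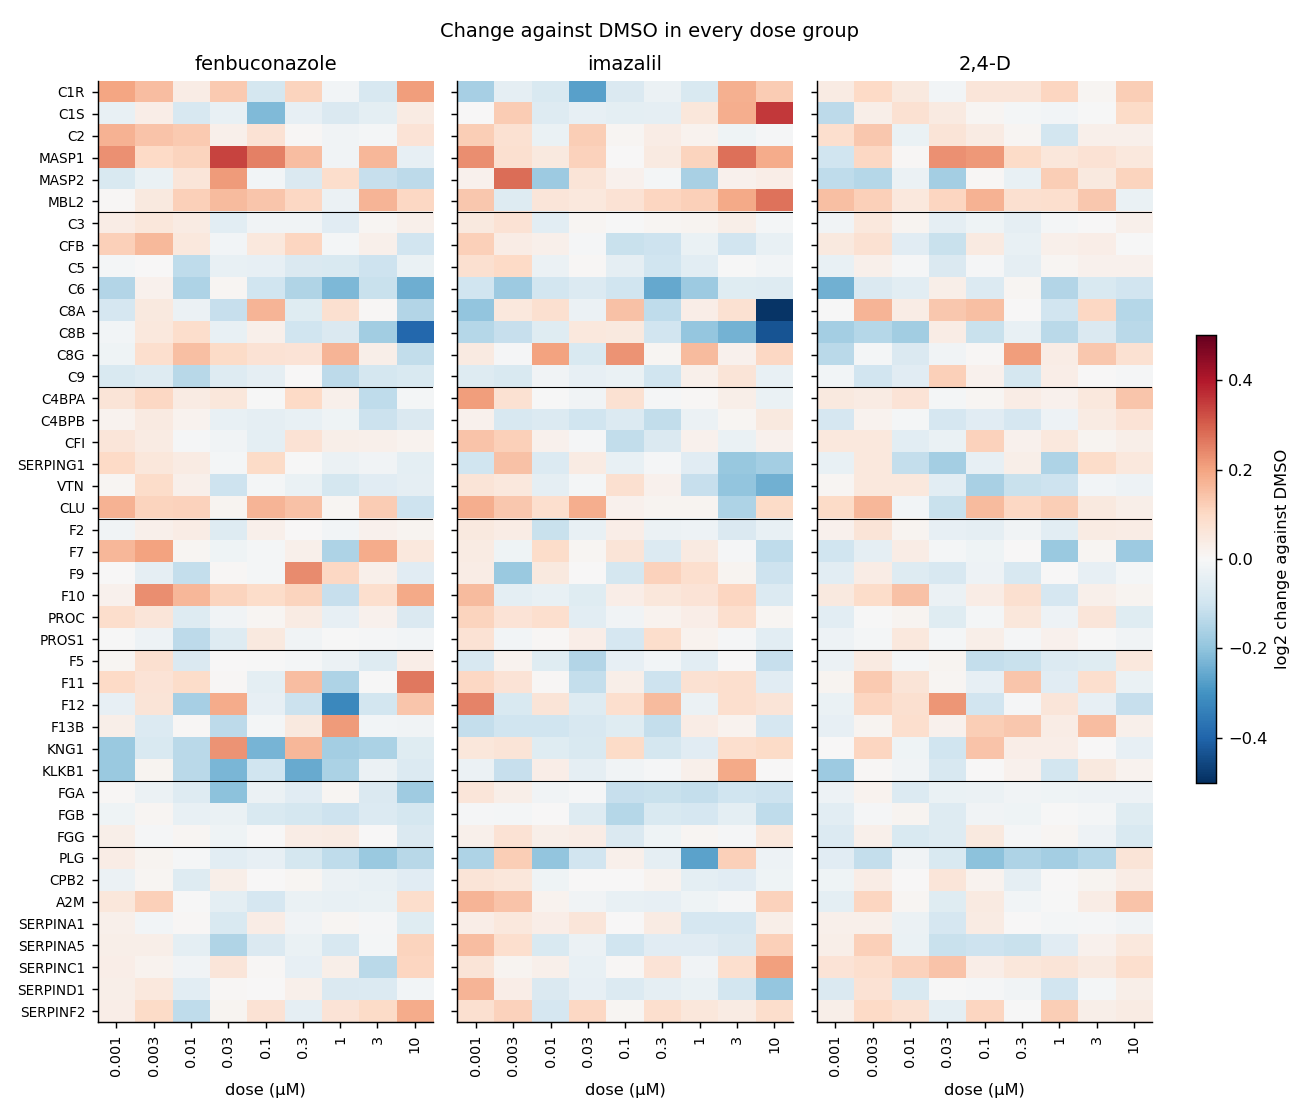
Mean log2 change against DMSO (colour, from -0.5 in blue to 0.5 in red) of the 43 genes (vertical axis, ordered by role with lines between roles) at each of the 9 doses (µM, horizontal axis) of each compound. C8A and C8B at 10 µM imazalil and C8B at 10 µM fenbuconazole are the darkest blue cells, and at lower doses no cell lies outside -0.32 to 0.34.

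Many genes, members among them, followed the spread of the array they were read on. That spread was computed from the values of the same array, so it is not independent of the genes set against it. Values were not centred by dose and the permutations ran across dose groups, so a change with dose also enters these correlations. Over the 30 columns of a set and with permutation p adjusted over all genes in the 3 sets, 8 members rose with the interquartile range of the array in the fenbuconazole set, where 14.7% of all genes did, and 4 (C2, C4BPB, F5 and F11) fell, where 12.7% did. Among the imazalil columns 11 rose (16.0% of all genes) and 2, F7 and VTN, fell (11.4%). Among those of 2,4-D 6 rose (13.2%) and 3, C1S, F7 and F12, fell (11.5%). CFB, CFI, CLU and FGG rose in all 3 sets, as did 9.52% of all genes. These members were bright, with means from 8.593 for CFB to 12.52 for FGG. The 3 sets share their DMSO arrays, so they are not independent of each other. For FGG Pearson's r was 0.74, 0.59 and 0.63 (fenbuconazole, imazalil, 2,4-D), Spearman's rho was 0.73, 0.63 and 0.64, and the permutation p for r was 1e-05, 0.00059 and 0.0003, the first being the smallest that 100000 permutations can give. After adjustment over 59322 tests these p-values were 0.000191, 0.00458 and 0.00268, those of rho were 0.000242, 0.00291 and 0.00232, and without the 2 arrays farthest from the median r was 0.73, 0.57 and 0.62. For VTN with imazalil rho was -0.51 (permutation p = 0.00438, adjusted 0.0238), the permutation p for r was 0.00102, and r was -0.37 without those 2 arrays. C8B did not pass, with r of -0.23, -0.33 and -0.27 (adjusted permutation p of 0.383, 0.184 and 0.282 for r, Spearman's rho of -0.32, -0.25 and -0.27 with permutation p of 0.0863, 0.179 and 0.152). With the array spread as a covariate the fall of C8B at 10 µM fenbuconazole against the 3 lowest doses was -0.44, with an adjusted p of 0.00198.

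Genes of the same pathways outside the 43 were read from lists, and some listed genes had no probe set of a single symbol. Measured were 19 of 25 for complement, 19 of 22 for coagulation and fibrinolysis and 3 of 3 for the vitamin K cycle. For liver transcription factors 9 of 13 were measured, for interleukin 6 input 5 of 5, and for acute phase or other plasma proteins 13 of 17. None of the measured genes passed an adjusted p of 0.05 at 10 µM against DMSO with any compound, against the 0.0152%, 0.106% and 0% of all genes. The most extreme values with fenbuconazole were 0.38 ± 0.17 for C1QA, of the C1q recognition protein, and -0.39 ± 0.13 for SERPINA10, the protein Z dependent inhibitor (adjusted p = 0.999 and 0.868). With imazalil the largest were 0.46 ± 0.12 for IL6R, the interleukin 6 receptor, and -0.29 ± 0.17 for ITIH1 (adjusted p = 0.232 and 0.876), and with 2,4-D 0.31 ± 0.08 for FCN1 and -0.21 ± 0.15 for ITIH1 (adjusted p = 1 for both).

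Among the vitamin K cycle genes GGCX, VKORC1 and VKORC1L1 the values at 10 µM ran from -0.07 for GGCX with imazalil to 0.09 for GGCX with fenbuconazole. Among the liver factors they ran from -0.17 for ONECUT1 with 2,4-D to 0.20 for CEBPA with imazalil. The 9 measured liver factors were CEBPA, CEBPB, CEBPD, FOXA1, FOXA2, FOXA3, ONECUT1, NR5A2 and PROX1. No HNF1 or HNF4 gene was among them.

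IL6R was the 1 gene of these lists that passed any test. It read 5.83, 5.76 and 6.05 in DMSO and 6.14, 6.35 and 6.53 at 10 µM imazalil, with no overlap. Against the 3 lowest imazalil doses IL6R rose by 0.54 ± 0.09 (fold 1.46, 95% interval 1.27 to 1.66, adjusted p = 0.0047 in limma). In the mean of its 3 probe sets the rise was 0.30 with an adjusted p of 0.156. The call was also lost without replicate 1 (adjusted p = 0.0654), replicate 2 (0.219) or replicate 3 (0.331), and without the 10 µM array of replicate 3 (0.163).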

How the data were processed

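HepG2 cells were profiled on Affymetrix 3' expression arrays. The deposited table holds log2 signals per probe set, made by the authors with RMA within each compound's set of 27 treated and 3 DMSO columns (90 columns from 84 arrays), and the processing notes name RMA and Partek, whose versions are not given in the sources used here. Array values carry no counting depth, so the number of arrays limits precision. Group means of all doses were fitted per set with limma 3.58.1 (lmFit, eBayes; R 4.3.3), two-sided, with Benjamini-Hochberg adjustment over 19774 genes. The adjustment was made within each comparison and not over the comparisons. The labels do not say that replicates were separate cultures, so p-values measure the spread between these arrays. Differences between compounds were fitted after centring on each set's DMSO mean. The fits were tested on simulated data. Correlations used numpy 2.4.6 with permutations.

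The members and lists were chosen with earlier results of these data known. Values in every array were given for, per compound, the 2 highest and 2 lowest members with the same direction in the 3 same-numbered pairs, members past an adjusted p of 0.05, and FGA, FGB, FGG, C3, SERPINA1 and F2, and others were chosen after their values were seen. In the 2,4-D set same-numbered 10 µM and DMSO arrays deviated together (r = 0.41, 0.31 and 0.16), so numbers may pair arrays in that comparison. The same r with fenbuconazole (0.39, 0.21, 0.08) or imazalil (-0.15, 0.06, 0.15) did not all exceed 0.1. Over all dose pairs the mean r was 0.044 with 2,4-D, 0.036 with fenbuconazole and 0.038 with imazalil. The lowest values were -0.277, -0.36 and -0.385, so whether numbers pair arrays was left undecided. Alternatives were the variance model, groups fitted alone, dim genes left out, other probe set rules, joint normalization, array spread, a replicate block and left-out arrays. Gene symbols came from the platform annotation.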

Additional observations from a re-analysis of the deposited data

Results flagged for a closer look

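IL6R, the interleukin 6 receptor, differed between imazalil and 2,4-D at 10 µM by a test of the difference itself. Its change against DMSO was 0.46 ± 0.12 on the log2 scale with imazalil, higher in 3 of 3 arrays, and -0.16 ± 0.14 with 2,4-D, and the difference was 0.62 ± 0.13 (95% interval 0.36 to 0.88, adjusted p = 0.0153 in limma). In the mean of its 3 probe sets the difference was 0.30 with an adjusted p of 0.263. The adjusted p was 0.0739, 0.44 and 0.173 without replicate 1, 2 and 3, and 0.0553, 0.271 and 0.31 without the 10 µM arrays of replicate 1, 2 and 3.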

How the results depend on the processing

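Of 342 counts and medians of the members recomputed under alternatives, 328 stayed within 1.5 times the reported count or the spread between replicates and 14 did not, and the cause was not tested. All but 1 of the reported counts were 0, and a 0 that stayed 0 was taken as unchanged, so the 328 say little about steadiness. The members called at 10 µM fenbuconazole against the 3 lowest doses, the only reported count above 0, were 0 with joint normalization, and between 0 and 1 with replicates left out. The same comparison for imazalil gave 2 (C1S and C8A) with dim genes left out, 1 (C8A) with joint normalization and 1 (C8A) with the replicate block. Under the replicate block the adjusted p of C8B with fenbuconazole was 0.0118, and the block changed no other count of called members. Slopes gave 1 (C8B, adjusted p = 0.0311) for fenbuconazole with dim genes left out and 1 (SERPIND1) for imazalil with a trended robust variance. Imazalil minus fenbuconazole gave 1 (F10) with joint normalization, where each set's own DMSO columns were not subtracted. The members' median with 2,4-D at 10 µM, 0.03 as reported, ranged from -0.0207 (without DMSO replicate 3) to 0.0389 (without DMSO replicate 1) when arrays were left out, and was -0.00987 without 10 µM replicate 2. With 3 arrays per group the 95% interval around a member's change at 10 µM reached 0.20 to either side of it for the median member with fenbuconazole and imazalil and 0.19 with 2,4-D.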
